A study of Daphnia magna with 3 samples.

Results

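Scaled to library totals, the 200 transcripts described here had most of their signal in the eggs of Daphnia magna, a freshwater water flea. They were chosen by their measured values among 33957 model transcripts. The level of a transcript was its CPM, which is reads per 1000000 reads of the library, each body part was given the median CPM of its 3 libraries, and the egg share was the egg median divided by the sum of the medians of 7 body parts. Of 4596 transcripts with at least 100 reads over 21 libraries, 988 had their highest median in eggs with an egg share of at least 40%. The 200 with the largest egg share were kept, which is 4.35% of the transcripts with at least 100 reads. Eggs being high and the other parts being low was therefore the condition of choice, and the egg values below are a description without a test.

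The study profiled eggs, hemocytes (blood cells that circulate in the body cavity), gut, head, antenna, carapace and carcass, which the table calls the body. All animals had the genotype IL-M1-8 and were kept by standard culture at 20 °C, each adult in 20 mL of ADaM medium, with daily feeding of green algae at 100000 cells per mL. Each of the replicates 3, 4 and 7 was 1 pool in which barcodes marked the 7 body parts, so that every body part had 3 libraries of nanopore cDNA reads. The labels give neither the stage of the eggs nor the way they were collected, and do not say whether the parts of a pool came from the same animals or the replicates from separate cultures. P-values therefore cover variation among these libraries alone, part of which may be technical.

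As background, Daphnia females mostly reproduce by parthenogenesis: unfertilised eggs pass from the ovary into a brood chamber under the carapace and develop there. The ovaries lie along the gut in the trunk, so dissected trunk tissue can carry oocytes. In animals, growing oocytes are loaded with maternal RNA and proteins that serve the early embryo before its own genes become active. The identifiers name gene models on contigs and come with no gene name (0 of 33957 matched the reference gene table), so no function is given to any transcript, and neither the eggs nor another body part could be checked against known marker genes.

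Library size ran from 159154 to 326037 reads in eggs and from 4161 to 1105094 reads over all libraries, the smallest being the gut of replicate 4. By correlation, the head of replicate 3 and the gut of replicate 7 were closer to a library of another part than to their own. Over all genes tested, the head library of replicate 3 had a Spearman correlation of 0.725 with hemocytes of replicate 4, against 0.525 and 0.422 with the heads of replicates 4 and 7. The gut library of replicate 7 had 0.692 with eggs of the same pool, against 0.295 and 0.238 with the guts of replicates 3 and 4. Those 2 guts are small libraries, of 32202 and 4161 reads. The hemocyte library of replicate 4 had 0.577 with eggs of the same pool and 0.608 and 0.414 with the hemocytes of replicates 3 and 7. It thus did not stand apart from hemocytes of replicate 3 by this measure. Among the hemocyte libraries it had the highest summed share of the members (2.39%), and it is handled together with the other 2. Correlations among the remaining libraries of these parts are not reported here. Results that rest on these 3 libraries are given with and without them. Exchange of RNA, of barcodes or of tissue between libraries was not tested.

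The 200 transcripts together took 10.05%, 10.3% and 8.898% of the egg reads in replicates 3, 4 and 7, a mean of 9.75% ± 0.748 (SD, n = 3). Outside eggs their summed share was below 4% in every library. It was 1.24%, 2.39% and 0.675% in hemocytes of replicates 3, 4 and 7, and 0.855%, 1.49% and 2.26% in carcass. The same sum was 0.581%, 0.120% and 3.40% in gut, and 2.15%, 0.136% and 0.143% in head. Carapace had 0.353%, 1.02% and 0.184%, and antenna had 0.308%, 0.186% and 0.339%. The egg libraries agreed closely in this sum, whereas gut and head each had 1 library far above their other 2. In bulk samples such as these, fewer cells of a type and less RNA per cell cannot be told apart.

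**Figure D1:**
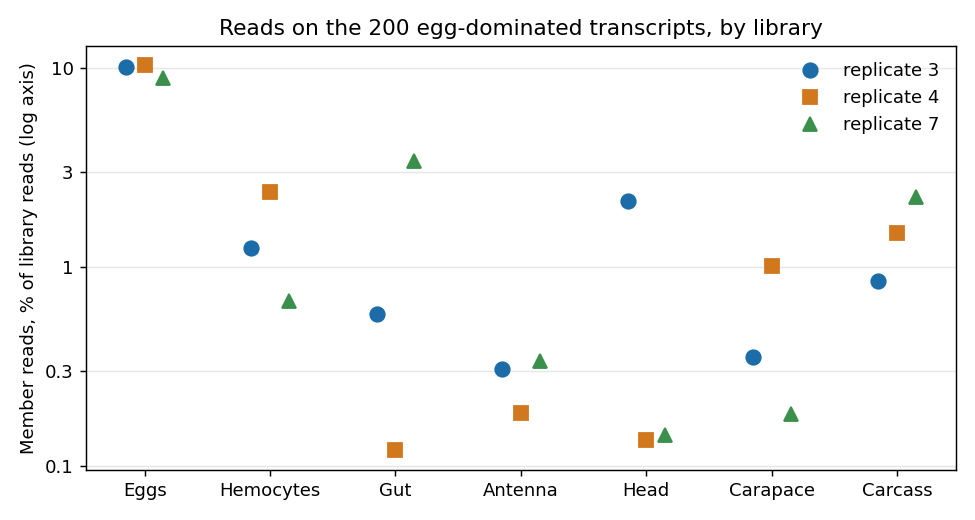
Summed share of library reads (percent) held by the 200 egg-dominated transcripts in each of the 21 libraries, by body part and replicate. The egg libraries sit between 8.898% and 10.3%, and the highest library outside eggs is the gut of replicate 7 at 3.40%.

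Among the 200 transcripts the egg share ran from 60.8% to 100%, with a median of 68.34%. It exceeded 70% in 87 transcripts and 80% in 36. The least concentrated members were maker-falcon_000028F-snap-gene-4.99-mRNA-4 with a share of 60.89% and augustus_masked-falcon_000049F-processed-gene-5.4-mRNA-1 with 60.8%. Just outside were maker-falcon_000000F-snap-gene-47.43-mRNA-2 with 60.73% and maker-falcon_000004F-augustus-gene-2.66-mRNA-1 with 60.69%. The limit at 200 thus falls in a smooth run of shares and separates no distinct class of transcripts. The value of the share also depends on scaling: the median was 52.56% with TMM factors and 63.76% with RLE factors, both from edgeR. With TMM the lower quartile was 47.84% and the lowest share 36.4%, and with RLE they were 58.89% and 49.34%. The median log2 difference between eggs and the mean of the other parts was 4.33 for members and 1.42 for all tested genes with library totals (pseudocount 1 CPM), 3.44 and 0.46 with TMM, and 4.02 and 1.03 with RLE. It was above 0 for all 200 members on each of these 3 scales, as their choice requires.

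The median CPM in eggs spanned 79.6 to 4310, with a median over members of 250.8. Below 200 CPM lay 81 transcripts, and 24 above 1000 CPM held 48.56% of all egg reads of the members. Per kilobase of transcript, the median egg level was 147.8 CPM, with quartiles of 51.9 and 348.1. Each transcript had 101 to 3769 reads in all, with a median of 236, of which a median of 153.5 came from eggs. The median over members was 33.89 CPM in carcass, 33.3 in hemocytes, 9.42 in carapace, 6.73 in antenna, 5.77 in head and 0 in gut. In gut, 130 members had a median of 0.

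**Figure D2:**
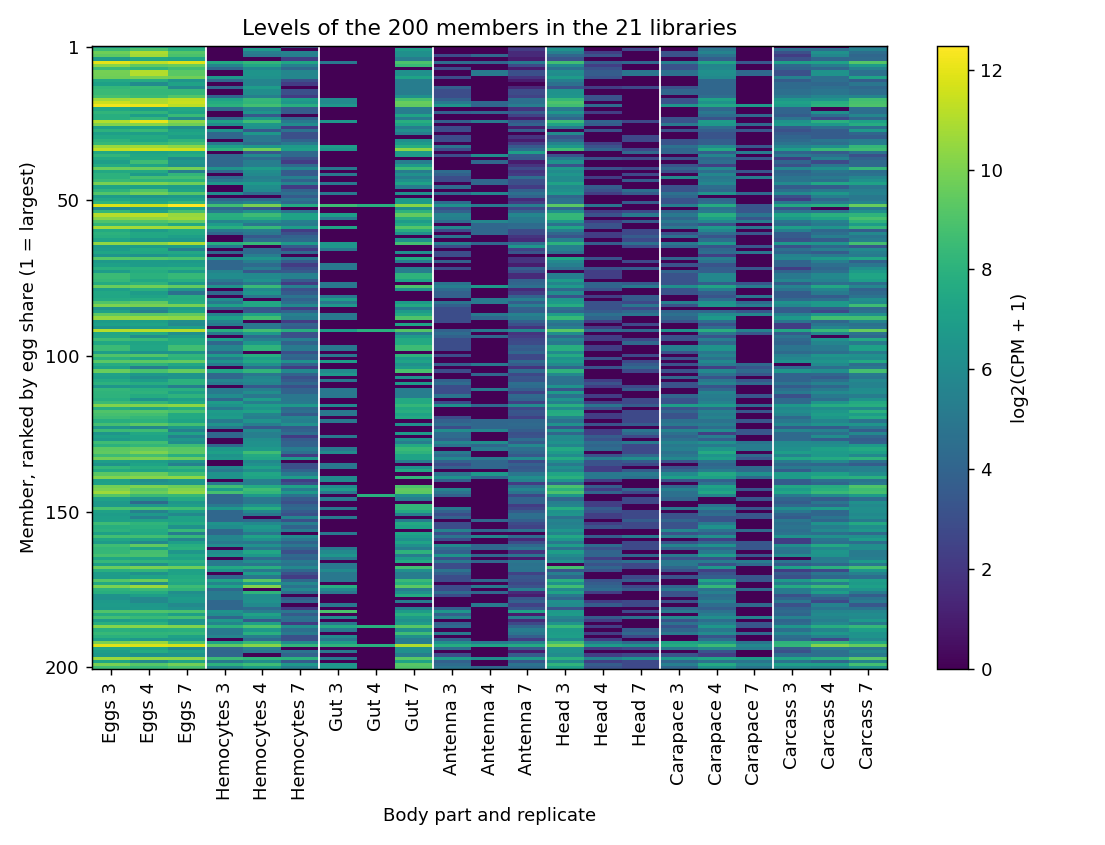
Level of each of the 200 transcripts (rows, ordered by egg share) in each of the 21 libraries (columns, grouped by body part), as log2 of CPM plus 1. The egg columns are high throughout, as the choice requires, and outside eggs the columns of gut 7, head 3, hemocytes 4 and carcass 7 stand out.

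The member with the highest median egg level, maker-falcon_000000F-augustus-gene-42.53-mRNA-1, had 4685, 4310 and 2346 CPM in eggs of replicates 3, 4 and 7 (3781 ± 1256, SD, n = 3). Outside eggs it ranged from 0 to 720.3 CPM, the latter in gut of replicate 7, with a median of 115.7 over 18 libraries. Every egg library was above every other library for this transcript.

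The second, snap_masked-falcon_000050F-processed-gene-3.2-mRNA-1, had 4009, 2469 and 3582 CPM in eggs and a share of 89.21%, one of the 4 largest shares among members with at least 300 reads. Its carcass libraries of replicates 3, 4 and 7 had 133.5, 141.2 and 561.3 CPM, the last being its highest value outside eggs. Its gut libraries had 31.05, 0 and 492.8 CPM, so carcass and gut were both highest in replicate 7 for this transcript. Per kilobase it stood lower, at 453.9 CPM, because the model is 7893 bases long, whereas maker-falcon_000000F-augustus-gene-42.53-mRNA-1 had 1374 CPM per kilobase.

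The third, augustus_masked-falcon_000011F-processed-gene-7.42-mRNA-1, had 3696, 3500 and 3306 CPM in eggs, a spread of only 5.56% of its mean. It had reads in all 21 libraries, as did 1 other member (genemark-falcon_000011F-processed-gene-27.73-mRNA-1, named after its values were seen), and an egg share of 61.38%, near the limit. Its medians of 684 CPM in hemocytes, 726.8 in carcass, 201.1 in carapace, 194.6 in antenna and 116.3 in head were the highest of any member there. In gut it had 279.5, 240.3 and 2047 CPM in replicates 3, 4 and 7, and the value in replicate 4 is 1 read of that small library. The groups did not overlap for this transcript, the lowest egg library being 1.62 times the gut of replicate 7.

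The fourth, maker-falcon_000011F-augustus-gene-9.34-mRNA-1, lies on the same contig and had 3480, 2909 and 5699 CPM in eggs (4029 ± 1474, SD, n = 3). Its highest values outside eggs were 1213 CPM in gut of replicate 7 and 1008 CPM in hemocytes of replicate 4. With 3769 reads it was the most deeply counted member, and its gut median of 372.6 CPM was the highest of the 200.

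Of the 4 members with the largest egg shares and at least 300 reads, the snap_masked model on contig falcon_000050F is described above. A genemark model of 165 bases on contig falcon_000241F had 830.1, 1935 and 558.2 CPM in eggs and a share of 91.94%. Its highest library outside eggs was carcass of replicate 4 with 79.08 CPM. A maker model of 943 bases on contig falcon_000044F had 676.6, 1696 and 475.4 CPM in eggs, a share of 90.75% and at most 75.82 CPM elsewhere. Both were highest in the eggs of replicate 4 and lowest in those of replicate 7, and their egg libraries did not overlap with any other library. By contrast augustus_masked-falcon_000035F-processed-gene-9.23-mRNA-1, with a share of 88.17%, was highest in replicate 3, at 1211, 678.6 and 757.6 CPM, and reached 341.2 CPM in gut of replicate 7. One member had a share of 100%: maker-falcon_000001F-snap-gene-44.62-mRNA-1 had a median of 0 in each of the 6 other parts. It was not absent there, since 16 of its 102 reads came from outside eggs, the highest value being 19.19 CPM in carcass of replicate 7.

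The egg libraries did not vary alike for all members. The median coefficient of variation over the 3 egg libraries was 27.08%, close to the 25.42% of the 788 egg-dominated transcripts ranked below the members. It was under 20% in 70 members and over 50% in 28. The most even member, maker-falcon_000074F-augustus-gene-0.70-mRNA-3, had 136.5, 144.5 and 141.1 CPM, and maker-falcon_000018F-snap-gene-22.22-mRNA-1 had 199.0, 213.6 and 202.4 CPM. The most uneven, maker-falcon_000019F-snap-gene-24.60-mRNA-1, had 125.1, 370.7 and 88.95 CPM, and maker-falcon_000006F-snap-gene-11.29-mRNA-1 had 358.2, 377 and 42.94 CPM. The last of these was lower in eggs of replicate 7 than in several libraries of other parts, among them head of replicate 3 with 81.15 CPM.

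Replicates 4 and 7 were the least alike. Across the 200 members, as a description over transcripts that share libraries, the Spearman correlation of egg levels was 0.900 between replicates 3 and 4, 0.845 between 3 and 7, and 0.733 between 4 and 7. Members within 1.5-fold numbered 140, 129 and 94 in these pairs. Eggs of replicate 4 were more than 2-fold above those of replicate 7 for 42 members (21%, against 15.86% of the 788 below), and the opposite held for 18 (9.0%, against 9.52%). The chi-square per degree of freedom of the read counts over the members was 5.49, 7.62 and 16.6 in the same order, where counting error alone gives about 1, so the 3 egg libraries differed by more than counting error and none repeated another. The stage of the eggs in each pool, which the labels do not give, was not tested.

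**Figure D3:**
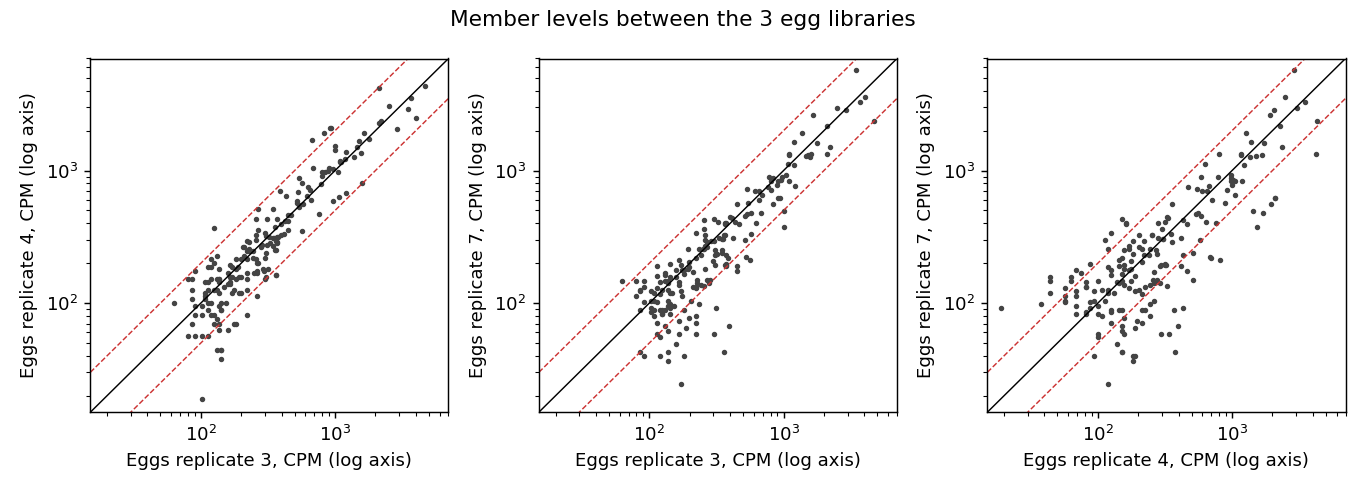
Egg CPM of each of the 200 transcripts in 1 replicate against another, on log axes, for the 3 pairs of egg libraries. Points lie closest to the line of equality for replicates 3 and 4 (140 members within 1.5-fold) and are most scattered for replicates 4 and 7 (94 within 1.5-fold).

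Detection outside eggs varied between libraries. All 200 members had reads in each of the 3 egg libraries. In carcass, 196 to 200 members had at least 1 read, in hemocytes 160 to 190, in head 107 to 195, in carapace 81 to 196, in antenna 59 to 196, and in gut 5 to 165. The low end in gut was the library of 4161 reads in replicate 4, where 1 read equals 240.3 CPM and the 3 reads taken as the limit of a count of 0 equal 721 CPM. A member at 0 there was not detectable at that depth, and this covers counting error only. A member had 0 reads in a median of 5 of the 18 libraries outside eggs.

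For 136 of the 200 members the lowest egg library was above all 18 other libraries, and for 64 the groups overlapped. Since the choice used these same levels, this count is a description. The share without overlap among other transcripts is not reported here. No trait of the members is read from this count or from the one with libraries left out. At or above the lowest egg library lay the gut of replicate 7 for 39 members, hemocytes of replicate 4 for 28, head of replicate 3 for 25, carcass of replicate 7 for 11 and carcass of replicate 4 for 6. Without head of replicate 3, hemocytes of replicate 4 and gut of replicate 7, 180 members did not overlap. In gut of replicate 7, 1 read equals 37.91 CPM, so single reads move a member by an amount that is large beside the lower egg levels.

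The body part with the highest level after eggs changed from pool to pool. By the medians over 3 replicates it was carcass for 100 members, hemocytes for 72, gut for 17, antenna and carapace for 4 each, head for 2 and none for 1. Within replicate 3 alone, the highest part other than eggs was head for 136 members (68.0%, against 56.22% of the 788 ranked below). Within replicate 4 it was hemocytes for 132 (66.0%, against 52.16%), and within replicate 7 it was gut for 126 (63.0%, against 57.74%). Carcass led for 10, 48 and 64 members in replicates 3, 4 and 7, and so was the leading part in none of the pools. Carcass was second for 84 members without replicate 3, 56 without replicate 4 and 32 without replicate 7. It was second for 128 without head of replicate 3, hemocytes of replicate 4 and gut of replicate 7.

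**Figure D4:**
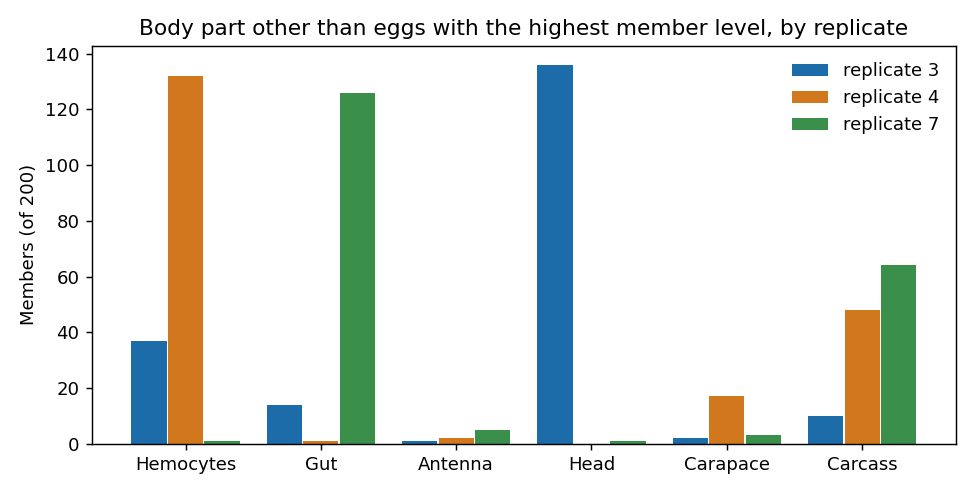
Number of the 200 transcripts for which each body part other than eggs had the highest CPM, within replicates 3, 4 and 7. Head leads in replicate 3 with 136 members, hemocytes in replicate 4 with 132 and gut in replicate 7 with 126.

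Relative to the egg library of the same pool, the summed share of the members was 38.22% in gut of replicate 7, 25.38% in carcass of replicate 7, 23.19% in hemocytes of replicate 4 and 21.4% in head of replicate 3. At the other end were gut of replicate 4 with 1.17%, which is 5 reads, and head of replicate 4 with 1.32%. The 788 egg-dominated transcripts ranked below the members were high in the same libraries: they took 22.75% to 25.05% of egg reads, 16.67% in gut of replicate 7, 11.4% in hemocytes of replicate 4 and 10.74% in each of head of replicate 3 and carcass of replicate 7.

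The relation of member levels to those in eggs differed between libraries. Across the 200 members, Spearman's rho with eggs of the same pool was 0.717, 0.775 and 0.704 for carcass of replicates 3, 4 and 7, and 0.657, 0.632 and 0.749 for hemocytes. It was 0.691 for head of replicate 3 and 0.642 for gut of replicate 7, against 0.475 and 0.221 for the other heads and 0.453 and 0.219 for gut of replicates 3 and 4. Antenna had 0.385, 0.401 and 0.478, and carapace had 0.516, 0.724 and 0.326. These values describe transcripts of the same libraries, differ in depth behind them and carry no test.

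How the reads outside eggs are divided among the 6 other parts was not used by the choice, although a member high in any single part was less likely to be chosen. It was tested with edgeR's quasi-likelihood test on the whole table, with Benjamini-Hochberg adjustment over all 4035 genes tested and a threshold of 0.05. Of the 200 members, 198 passed the filter on low counts, but the filter counts the egg libraries in which the members were chosen to be high. Only 89 passed it when the egg libraries were left out, so 109 were tested by virtue of their egg reads. A difference among the 6 parts was called for 6 members, or 3.03%, while the background over all genes tested was 13.2% (532 genes). At an unadjusted p under 0.05 there were 46 members, and DESeq2 called 10. In the fit without eggs 1 of 89 members (1.12%) was called, with 25 at an unadjusted p under 0.05, and the background was 11.9% of 2988 genes. Reads outside eggs had a median of 87 over the members and 211 over all genes tested in the fit with eggs. The part of this lower depth in the counts of calls was not tested, and nothing about the members is read from their distance to the background. For the counts at an unadjusted p and by DESeq2, the share of all genes is not reported here.

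Taken one part at a time, 1 member (0.505%) was higher in carcass than in the mean of the other 5 parts, beside 1.31% of all genes tested, and 0 were lower, beside 0.198%. For the higher direction 47 members had an unadjusted p under 0.05 and DESeq2 called 1, and for the lower direction both counts were 0. These shares, too, are of the 198 members that include the 109. In the fit without eggs 0 of 89 were higher in carcass, beside 1.77% of all genes, with 33 at an unadjusted p under 0.05. In hemocytes 0 members were higher, beside 0.372% of all genes, with 23 at an unadjusted p under 0.05 and 0 by DESeq2. In hemocytes 0 were also lower, beside 0% of all genes, with 0 at an unadjusted p under 0.05 and 0 by DESeq2. In antenna 2 members (1.01%) were higher, beside 7.19%, and 4 (2.02%) were lower, beside 1.09%. At an unadjusted p under 0.05 antenna had 5 higher and 67 lower members, and DESeq2 called 0 and 12. Of the 4 lower members, 2 are models with nearly the same counts, described below. In the fit without eggs 0 of 89 were higher in antenna, beside 7.86% of all genes, and 2 (2.25%) were lower, beside 0.636%. That fit had 1 higher and 43 lower members in antenna at an unadjusted p under 0.05. The printed shares of all genes are for the edgeR adjusted p alone. Shares of all genes at an unadjusted p under 0.05, or called by DESeq2, are not reported here. Nothing about the members is read from those counts.

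The fitted changes leaned one way without passing the test. The 198 members tested include the 109 that were tested by virtue of their egg reads. The median log2 fold change of the members was 0.83 for carcass, against 0.18 over all genes tested. Above 0 were 179 of 198 members (90.4%, against 59.7% of all genes tested). For hemocytes the median was 0.72 against 0.20, with 163 members above 0 (82.3%, against 63.1%). Without hemocytes of replicate 4 the hemocyte median fell to 0.24 against 0.11, with 125 of 200 above 0 (62.5%, against 56.2%). Without the whole of replicate 4 it was 0.37 against 0.05. For antenna the median was -1.18 against 0.07, with 159 members below 0 and 39 above (19.7%, against 53.1%). Without gut of replicate 7 the antenna median was -0.56 against 0.20. Without carcass of replicate 7 the carcass median was 0.64 against 0.16. With library totals in place of TMM factors the medians were 1.06, 0.85 and -1.72, beside 0.46, 0.34 and -0.41 over all genes. Without head of replicate 3, hemocytes of replicate 4 and gut of replicate 7 they were 1.97, 1.23 and -0.05. Beside them stood 0.36, 0.28 and 0.27, so the antenna median was near 0 without these 3 libraries. In the fit without eggs, which tested 89 members, the medians were 1.10 for carcass, 0.91 for hemocytes and -1.88 for antenna. Beside them stood 0.28, 0.15 and 0.03 over the 2988 genes of that fit. A threshold passed by few members does not show that the others were level across parts.

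**Figure D5:**
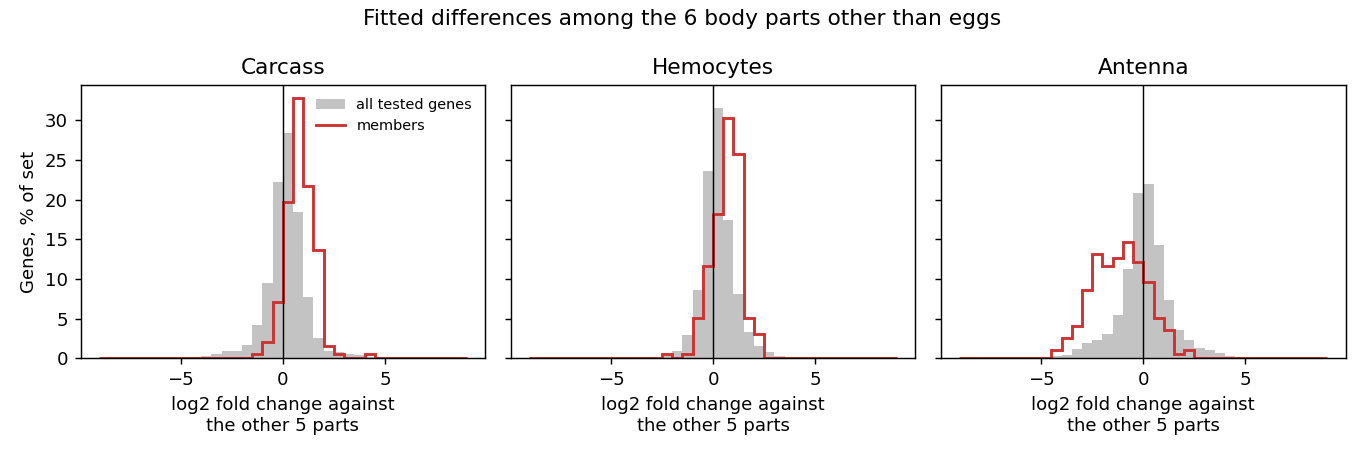
Distribution of the fitted log2 fold change of carcass, hemocytes and antenna, each against the mean of the other 5 parts outside eggs, for the members tested and for all genes tested, as percent of each set. Members lie above the whole table in carcass (median 0.83 against 0.18) and hemocytes (0.72 against 0.20), and below it in antenna (-1.18 against 0.07). The 198 members tested include 109 that passed the filter on low counts only with their egg reads.

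Leaving out the head of replicate 3, the hemocytes of replicate 4 and the gut of replicate 7 together changed these counts. Then all 200 members and 4653 genes were tested, 44 members (22%) differed among the 6 parts beside 20.8% of all genes, and 54 (27%) were higher in carcass beside 5.87%. In each of these 3 parts the library left out was the one highest in the members, so its removal lowers the members there by construction and raises carcass beside them. In hemocytes 1 member (0.5%) was then higher, beside 2.04% of all genes. In antenna 3 (1.5%) were higher, beside 7.61%, and 0 were lower, beside 0.602%.

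Single libraries also decided the counts. These fits, and those for antenna below, tested 3696 to 4838 genes in place of 4035. The share of all genes called in each is not reported here. No difference between the members and the whole table is read from these counts. The 6 members called for any difference became 33 without head of replicate 3, 15 without carapace of replicate 4, 11 without gut of replicate 7 and 10 without any 1 of hemocytes of replicate 4, gut of replicate 3 or carcass of replicate 3. They became 3 without antenna or carcass of replicate 4, 1 without antenna or carapace of replicate 3, and 0 without antenna or carcass of replicate 7. Without the whole of replicate 3 there were 15, and without replicate 4 there were 0. The 1 member higher in carcass became 15 without head of replicate 3, 10 without gut of replicate 7, 5 without carcass of replicate 3, 3 without antenna of replicate 7 or carapace of replicate 4, and 2 without head of replicate 4. Without replicate 3 it became 12, and without replicate 4 or 7 it became 0. The 0 members higher in hemocytes became 2 without head of replicate 3.

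In antenna, the 4 lower members became 20 without gut of replicate 3 or head of replicate 7, 13 without hemocytes of replicate 7, 10 without carapace of replicate 7, 9 without carcass of replicate 3 and 7 without head of replicate 4. They became 0 without gut of replicate 7, without antenna of replicate 3 or 7, and without the whole of replicate 3 or 4. The 2 higher members became 1 without gut, carapace or carcass of replicate 4, and 0 without antenna of replicate 7, without replicate 4 and without replicate 7.

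The member higher in carcass was maker-falcon_000008F-snap-gene-23.72-mRNA-1, with 45.77, 33.89 and 33.58 CPM in carcass of replicates 3, 4 and 7. Its eggs had 90.97, 81.68 and 131.9 CPM. Outside those parts it had reads in 3 libraries only, with 39.13 CPM in hemocytes, 4.20 CPM in carapace (both replicate 4) and 6.73 CPM in antenna of replicate 3. All 3 carcass libraries were above every library outside eggs except hemocytes of replicate 4, which lay between them. The log2 fold change of carcass over the mean of the other 5 parts was 4.19 ± 0.87 (SE; edgeR adjusted p = 0.0136), and the direction held in 3 of 3 replicates. The transcript has 110 reads in all, and DESeq2 gave a log2 fold change of 3.07 with an adjusted p of 0.0099. It passed the filter on low counts only with its egg libraries and was not tested in the fit without eggs. The call was lost without carcass of replicate 3 (log2 fold change 3.98) and without replicate 3 (4.32), 4 (5.65) or 7 (3.60).

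The 4 members lower in antenna had 0 CPM in antenna of replicates 3 and 4 and a low level in replicate 7. The models snap_masked-falcon_000051F-processed-gene-5.25-mRNA-1 and snap_masked-falcon_000051F-processed-gene-5.7-mRNA-1 both had 1.81 CPM there and a log2 fold change of -3.93 ± 1.03 (SE; edgeR adjusted p = 0.0172). They have nearly the same counts, 346 and 345 reads in all, and are uncertain as separate transcripts. Both passed the filter on low counts only with the egg libraries and were not tested in the fit without eggs. The next 2 were named after their values were seen. The model maker-falcon_000013F-augustus-gene-14.69-mRNA-1 had 2.72 CPM in antenna of replicate 7 and a log2 fold change of -3.78 ± 0.99 (SE; edgeR adjusted p = 0.0172). The model maker-falcon_000001F-augustus-gene-5.81-mRNA-1 had 6.33 CPM there and a log2 fold change of -3.20 ± 0.88 (SE; edgeR adjusted p = 0.0238). In all 4 the direction held in 3 of 3 replicates, but the depth of the antenna libraries limits this. Antenna of replicate 4 had 58544 reads, or 17.08 CPM per read. The 3 reads taken as the limit of a count of 0 equal 51.24 CPM there and 20.18 CPM in antenna of replicate 3. In replicate 4 these members had 58.7 to 117.4 CPM in hemocytes and 56.49 to 101.7 in carcass, but 4.01 to 8.02 in head. The 0 in antenna of replicate 4 thus does not by itself show a level below the mean of the other parts. All 4 calls were lost without gut of replicate 7, where the fitted changes were -2.59 for both snap_masked models, -2.52 and -2.72, and without antenna of replicate 3 or antenna of replicate 7. Without antenna of replicate 3 the fitted changes were -3.70 for both snap_masked models, -3.52 and -2.87. Without antenna of replicate 7 they were larger than with it, at -5.91 for both, -6.19 and -6.59. The last model also lost its call without antenna of replicate 4 (-3.05).

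The 2 members higher in antenna were so in 1 of 3 replicates, and they too were named after their values were seen. The model maker-falcon_000011F-snap-gene-21.41-mRNA-2 had 6.73, 0 and 92.3 CPM in antenna of replicates 3, 4 and 7, the last from 102 reads (log2 fold change 2.16 ± 0.61, SE; edgeR adjusted p = 0.0276). The model genemark-falcon_000008F-processed-gene-28.54-mRNA-1 had 0, 0 and 129.4 CPM there, the last from 143 reads (log2 fold change 2.32 ± 0.68, SE; edgeR adjusted p = 0.0351). Antenna of replicate 7 alone carried both, and without it the fitted changes were -1.30 and -4.69. Neither was called by DESeq2, with the replicate number as a block or with library totals. Both passed the filter on low counts only with the egg libraries and were not tested in the fit without eggs.

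The median length of the members was 2052 bases, from 165 to 12130, against 2797 bases for all transcripts with at least 100 reads and 2281 for the egg-dominated transcripts ranked below. Models under 1000 bases made up 22.5% of the members (45 transcripts) and 15.38% of all with at least 100 reads. Sets chosen by the same rule for other body parts had median lengths of 2138 bases in antenna (200 transcripts), 2532 in carapace (160) and 2392 in carcass (103). Among the members, Spearman's rho of length was -0.025 with the egg level in CPM and 0.003 with the egg share, over 200 transcripts. The rho of the egg level was -0.227 with the coefficient of variation and 0.169 with the egg share. Most models, 142 or 71.0%, carried the maker prefix, against 74.72% of all with at least 100 reads, and 26 (13.0%, against 9.90%) were augustus_masked models.

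The members were spread over many contigs. They lay on 62 of the 158 contigs that hold a transcript with at least 100 reads, and 25 contigs held 1 each. The contigs with most members were falcon_000011F with 16 of its 175 such transcripts (9.14%), falcon_000000F with 12 of 360 (3.33%), falcon_000008F with 11 of 155 (7.10%) and falcon_000028F with 11 of 81 (13.58%), beside 4.35% of all. The share of egg-dominated transcripts before the limit of 200 differed less between these contigs: 24.0%, 21.11%, 23.23% and 23.46% in the same order, beside 21.5% in all. Members whose identifiers share a contig and the first part of the gene number numbered 53, in 24 groups of at most 4.

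Some models may be copies of each other. Counting as near-identical those whose reads differed by at most 5% over the 21 libraries, there were 11 pairs in 6 groups, which hold 14 members. With 1 model kept of each group 192 members remain. The pair genemark-falcon_000137F-processed-gene-0.16-mRNA-1 and genemark-falcon_000139F-processed-gene-0.3-mRNA-1 had 800 and 798 reads on different contigs, and maker-falcon_000069F models 3.51 and 3.40 had 1185 and 1224 reads on the same contig. Reads of such models could be split or shared by the counting, so these members are uncertain as separate transcripts.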

How the data were processed

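The authors deposited 1 table of whole read counts per transcript with transcript lengths, 7 barcoded body parts in each of 3 pools. SAMtools and DESeq2 are named, without versions, in the submitters' processing notes. The aligner, the build and the annotation were not given in the sources used here. Deposited RPKM values were not used. Depth ran from 4161 to 1105094 reads per library, and no count interval covers more than counting error. The members and lists were chosen with earlier results of these data known. Tests on the deposited counts used edgeR 4.0.16 (R 4.3.3): 1 mean per body part, TMM factors, filterByExpr with a minimum count of 10 and all 21 libraries, with Benjamini-Hochberg adjustment at 0.05. The joint test and 3 of the 6 single contrasts (carcass, hemocytes, antenna) are reported; the other 3 were looked at and are not. DESeq2 1.42.0, library totals, RLE scaling, no filter, a replicate block, a fit without eggs and left-out libraries were alternatives. The script was tested on simulated data. The replicate number marks a shared pool, so a block was tried: 28 of 63 same-number pairs of libraries had deviations correlated above 0.1 (median r 0.076). Named members were the 4 with the highest egg level, the 4 with the largest egg share at 300 reads or more, the 2 on each side of the limit, the 2 least and 2 most variable, and up to 2 called members per direction that moved alike in 3 of 3 replicates.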

Additional observations from a re-analysis of the deposited data

How the results depend on the processing

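The 6 members called for any difference outside eggs became 44 with no filter on low counts, where 200 members and 19682 genes were tested. They became 10 with DESeq2 and 1 in a fit without eggs, where 89 members and 2988 genes were tested. Without the 3 libraries head of replicate 3, hemocytes of replicate 4 and gut of replicate 7 they became 44. They ranged from 0 to 33 over left-out replicates and libraries. Beyond the shares printed above, the share of all genes called in each alternative is not reported here. No difference between the members and the whole table is read from these counts. The 1 member higher in carcass became 2 with library totals, 23 with no filter, 0 in a fit without eggs and 54 without the 3 libraries (left out: 0 to 15). That 1 member was not tested in the fit without eggs. Members lower in carcass or in hemocytes stayed at 0 (0 to 0), and the 0 higher in hemocytes became 1 without the 3 libraries (0 to 2). The 2 higher in antenna became 0 with library totals, DESeq2, the replicate block or a fit without eggs (0 to 3). The 4 lower became 24 with no filter, 12 with DESeq2, 2 without eggs in the fit and 0 without the 3 libraries (0 to 20). The 2 higher members, and the 2 snap_masked models among the 4 lower, were not tested in the fit without eggs. The replicate block left 6 members called for any difference, 1 higher in carcass and 4 lower in antenna, so that it changed no other count. The log2 fold change in antenna of maker-falcon_000011F-snap-gene-21.41-mRNA-2 turned to -1.44 without replicate 7 and -1.30 without antenna of replicate 7, and that of genemark-falcon_000008F-processed-gene-28.54-mRNA-1 to -2.20 and -4.69, while their highest values were 4.16 (without replicate 3) and 3.44 (without gut of replicate 7). Of the 200 members, 103 were again chosen with a minimum of 50 reads, 120 with 200 reads, 142 with means in place of medians, 175 with TMM, 176 with RLE, and 107 to 112 without 1 replicate; carcass was second for 128 without the 3 libraries and 32 to 84 without 1 replicate. The alternative without the 3 libraries was chosen after seeing the data. Apart from the smaller numbers of genes and samples in some fits, the cause was not tested. Depth limits gut of replicate 4 most.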
